A study of Mus musculus with 88 samples.

Results

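The mRNA of 10 activity-induced immediate early genes was followed in 3 brain regions of mice after chronic social defeat stress (CSDS): Fos, Fosb, Junb, Egr1, Egr2, Egr4, Arc, Npas4, Nr4a1 and Dusp1. They were picked by symbol, through the GRCm38 gene identifiers, by a rule that uses no measured value but was written with earlier results of these data known. All 10 were in all 3 tables, among 18946 genes in the medial prefrontal cortex (mPFC), 17515 in the bed nucleus of the stria terminalis (BNST) after the filter on low counts, and 19559 in the ventral hippocampus (vHPC).

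The mice were males of 2 inbred strains, C57BL/6Crl (B6) and DBA/2Crl (D2), aged 8 weeks at dissection, with no transgene or drug. These names follow the sample labels, and the study writes C57BL/6NCrl and DBA/2NCrl. Controls were housed beside another control mouse in place of an aggressor, and defeated mice were divided by a social avoidance test, against controls of their strain, into resilient and susceptible. The mPFC held 6 B6 control, 6 B6 resilient, 6 B6 susceptible, 6 D2 control and 8 D2 susceptible mice. The BNST held 5 B6 control, 5 B6 resilient, 5 B6 susceptible, 5 D2 control, 3 D2 resilient and 5 D2 susceptible mice, and the vHPC 6 B6 control, 8 B6 resilient, 3 B6 susceptible, 6 D2 control and 5 D2 susceptible mice. Each library came from a single mouse, and tissue was taken in the morning about a week after the last defeat, after single housing of all mice and after behavioral tests, of which B6 mice had more kinds than D2 mice.

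Immediate early genes are transcribed within minutes of synaptic activity from promoters that are poised in advance, without new protein synthesis. Calcium entry and MAP kinase signalling activate CREB, bound to cAMP response elements (CRE), and serum response factor with its partners, bound to CArG boxes. The mRNAs decay fast, which makes their level a widely used readout of recent neuronal activity. Fos, Fosb and Junb encode subunits of the AP-1 transcription factor, Egr1, Egr2 and Egr4 zinc finger transcription factors, Npas4 a neuron-specific bHLH-PAS factor and Nr4a1 an orphan nuclear receptor. Arc encodes a synaptic protein that promotes removal of AMPA receptors, and Dusp1 a phosphatase that switches MAP kinases off.

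Promoter sequences, from RefSeq on GRCm38.p6, were found for 8 of the 10 genes. The 250 bases before the transcription start were searched on both strands for the 5 bases of the CRE core, TGACG, for the full CRE, which joins the core to its own reverse complement as TGACGTCA and so holds the core on each strand, and for the CArG box. A core on the other strand is printed here as CGTCA. The core was in every window of 7 of the 8 genes, against 17.8% of all 32851 promoter windows. The full CRE was found for Dusp1 alone (1.55% of all windows), and the CArG box for Egr2 alone (1.47%). The 4 windows below belong to the gene with the clearest group differences in the vHPC (Fosb), the gene tied most closely to the other members in all 3 regions (Nr4a1), the gene tied least to them in the mPFC and vHPC (Npas4) and the gene with the full CRE (Dusp1). Capitals mark the CRE core or full CRE, which a script found by letters; a match does not show binding. They lie at chr7:19310046-19310295 (Fosb, minus strand), chr15:101266596-101266845 (Nr4a1, plus strand), chr19:4989972-4990221 (Npas4, minus strand) and chr17:26508473-26508722 (Dusp1, minus strand).
Fosb: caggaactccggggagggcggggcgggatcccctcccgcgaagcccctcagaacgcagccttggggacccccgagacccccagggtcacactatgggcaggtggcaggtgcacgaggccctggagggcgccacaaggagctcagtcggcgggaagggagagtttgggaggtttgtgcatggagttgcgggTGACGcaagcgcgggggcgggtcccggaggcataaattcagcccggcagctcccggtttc
Nr4a1: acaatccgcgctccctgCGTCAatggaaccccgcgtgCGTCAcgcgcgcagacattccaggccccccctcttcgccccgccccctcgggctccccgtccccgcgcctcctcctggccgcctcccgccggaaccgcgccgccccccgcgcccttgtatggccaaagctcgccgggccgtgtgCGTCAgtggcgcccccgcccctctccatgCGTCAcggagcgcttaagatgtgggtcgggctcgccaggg
Npas4: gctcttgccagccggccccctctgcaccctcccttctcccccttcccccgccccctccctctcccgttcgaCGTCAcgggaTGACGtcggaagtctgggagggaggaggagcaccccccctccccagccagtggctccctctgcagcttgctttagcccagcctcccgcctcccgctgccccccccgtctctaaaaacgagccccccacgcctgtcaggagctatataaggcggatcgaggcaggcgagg
Dusp1: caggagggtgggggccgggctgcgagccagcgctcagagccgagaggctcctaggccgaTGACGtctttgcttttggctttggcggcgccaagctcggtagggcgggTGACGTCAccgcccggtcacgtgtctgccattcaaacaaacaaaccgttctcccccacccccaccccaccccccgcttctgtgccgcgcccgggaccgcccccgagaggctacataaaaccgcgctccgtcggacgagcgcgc
Nr4a1 held 4 copies of the core, Npas4 2, Fosb 1 and Dusp1 3, of which 2 form its full CRE. The copy nearest to the start lay 35 bases before it in Nr4a1, 55 in Fosb, 135 in Dusp1 and 164 in Npas4.

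Values for the mPFC and vHPC were batch-corrected log2 CPM (read counts scaled to the size of the library) as deposited, and BNST values were log2 CPM computed from deposited counts with TMM scaling. Total counts per BNST library ranged from 11825757 to 25793910, while the mPFC and vHPC tables hold no counts, so the depth behind their values is unknown. The labelled tissues were checked by marker genes. Summed excitatory neuron markers of the cortex and hippocampus lay between 8.51 and 10.02 log2 CPM in every mPFC and vHPC library but between 4.09 and 9.77 in the BNST, where summed inhibitory neuron markers were at 10.34 to 11.20. Hippocampal markers, at 9.91 to 10.39 in the vHPC, were as high in the BNST (9.71 to 10.68), and summed striatal markers in the BNST varied from 8.91 to 12.46. Choroid plexus markers varied from 3.48 to 11.03 between vHPC libraries. In bulk tissue, fewer cells of a type and less RNA per cell cannot be told apart. Among BNST libraries, D2 control replicate 2 and B6 susceptible replicate 5 had every member below its group mean, by 1.63 and 1.3 log2 units on average, and B6 susceptible replicate 3, the deepest library, had every member above it, by 1.58 on average.

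Members differed widely in level, and their order changed with the region. The regions were prepared with different library kits and normalized separately, so levels between regions are given side by side without a test. In B6 controls, on a scale of log2 CPM per kilobase of exon, Arc led in the mPFC at 5.5 ± 0.23 (SD, n = 6) and in the vHPC at 4.65 ± 0.33 (n = 6), and Egr1 led in the BNST at 5.98 ± 0.94 (n = 5). Below Arc in the mPFC came Egr1 (3.77 ± 0.33), Fos (3.46 ± 0.22) and Junb (3.37 ± 0.13). The gaps from Egr1 to Fos and from Fos to Junb were no more than the larger SD of the pair. Fosb was lowest at -0.02 ± 0.28. In the vHPC Junb was second at 3.92 ± 0.15, whereas Egr1, Nr4a1 and Dusp1 lay between 1.74 and 1.47, with neighbouring gaps within the SD. Egr2 and Fosb were the lowest there, at -2.35 ± 0.10 and -2.14 ± 0.25. In the BNST the gaps between neighbours from Arc (4.61 ± 0.86) through Egr4, Nr4a1, Junb and Dusp1 down to Npas4 (2.69 ± 1.01) were within the larger SD of the pair. Fos, among the higher members in the mPFC, was near the bottom at 0.55 ± 0.65. The lowest in the BNST was Egr2, at 0.44 ± 1.05, which lay within the SD of Fos.

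The clearest group differences were in the vHPC, where every significant change of a member was a rise. Fosb stepped up from group to group. Its level ran from 0.11 through a median of 0.55 to 0.75 log2 CPM in B6 controls, from 0.70 through 1.04 to 1.48 in B6 resilient mice, and was 1.58, 1.78 and 1.84 in the B6 susceptible mice. D2 controls ran from 1.97 through 2.2 to 2.54, and the D2 susceptible mice had 2.52, 2.95, 2.91, 2.84 and 3.06. The ranges barely touched: 1 B6 resilient mouse fell among the B6 controls and 1 D2 susceptible mouse among the D2 controls, while B6 susceptible mice overlapped neither B6 controls nor B6 resilient mice.

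**Figure D1:**
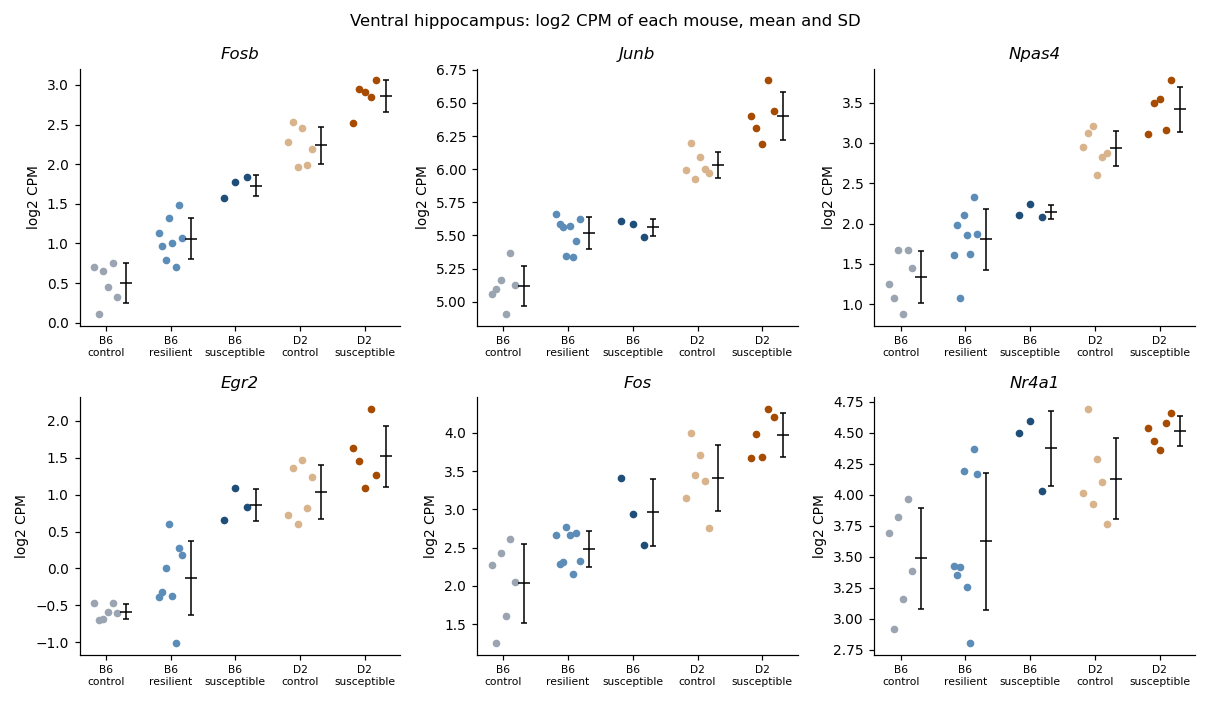
Level in log2 CPM (y axis) of 6 members in each vHPC mouse, by group (x axis), with bars for the mean and SD of the group. Fosb stepped from a mean of 0.50 in B6 controls to 2.86 in D2 susceptible mice, and the D2 groups lay above the B6 groups for Fosb, Junb and Npas4.

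In B6 susceptible against B6 control mice, 6 of the 10 members rose, against 40.6% of all genes called in this comparison and 20.5% called higher (limma, adjusted p under 0.05). Fosb was higher by 1.23 ± 0.16 (SE) on the log2 scale, a 2.34-fold difference (adjusted p = 2.44e-06). Egr2, at -0.70 to -0.47 in B6 controls and 0.66, 1.08 and 0.83 in the susceptible mice, rose 2.72-fold (log2 difference 1.44 ± 0.26, adjusted p = 0.000119), with no overlap between the groups. All B6 controls were under 1 CPM for Egr2, so it met the filter of 1 CPM in 6 samples through other groups. Its low values also rest on an unknown depth. Fos rose by 0.92 ± 0.26, Nr4a1 by 0.89 ± 0.27, Npas4 by 0.81 ± 0.21 and Junb by 0.44 ± 0.09, with adjusted p-values of 0.00691, 0.0123, 0.00318 and 0.000653. The 4 other members had positive differences that did not pass, 0.58 for Egr1, 0.43 for Dusp1, 0.30 for Egr4 and 0.20 for Arc. The median of the 10 was 0.70, where the median over all genes was -0.01.

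In B6 resilient mice, the rise was smaller and covered fewer members. Fosb (0.56 ± 0.12, adjusted p = 0.00282) and Junb (0.40 ± 0.07, adjusted p = 0.000312) passed, 2 of 10 against 4.94% of all genes called higher. Junb ran from 4.91 through 5.11 to 5.37 log2 CPM in B6 controls and from 5.34 through 5.57 to 5.66 in resilient mice, so only the ends of the ranges met. Npas4 lay just outside the threshold (0.47 ± 0.16, adjusted p = 0.0514), and Dusp1 and Egr1 were at differences of 0.00 and 0.02. Tested directly, B6 susceptible mice were above resilient mice for Egr2 (0.98 ± 0.24, adjusted p = 0.00811), Nr4a1 (0.75 ± 0.26, adjusted p = 0.0359) and Fosb (0.67 ± 0.15, adjusted p = 0.00561), 3 of 10 against 27.6% of all genes called and 14.1% called higher. Junb, in contrast, was 5.61, 5.59 and 5.49 in susceptible mice, within the range of resilient mice (difference 0.04 ± 0.09). Egr2 ran from -1.01 through -0.16 to 0.60 log2 CPM in resilient mice. Its values there also lay around 1 CPM and rest on an unknown depth. These counts moved with single mice: the resilient count was 4 without B6 resilient replicate 6, and the susceptible to resilient count was 5 without B6 resilient replicate 4 or 7 and 1 without B6 susceptible replicate 2. The B6 control, resilient and susceptible contrasts share mice, so they are not independent of each other.

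In D2 mice Fosb and Junb were again the members that passed. Fosb (0.62 ± 0.14, adjusted p = 0.00683) and Junb (0.37 ± 0.08, adjusted p = 0.00522) rose in susceptible mice, 2 of 10 against 4.28% of all genes called and 1.54% called higher. Junb was 6.4, 6.31, 6.19, 6.67 and 6.44 in the susceptible mice and ran from 5.93 through 6.00 to 6.19 in D2 controls, so the lowest susceptible mouse and the highest control lay side by side. All 10 differences were positive, from 0.02 for Egr4 to 0.62, with a median of 0.38. The effect of susceptibility was smaller in D2 than in B6 for 9 of the 10 members (median difference -0.34), but none of the differences between strains passed (0 of 10 against 0.782% of all genes, with 2 at an unadjusted p under 0.05 by limma: Egr2 at -0.96 ± 0.34 and Fosb at -0.61 ± 0.21, adjusted p = 0.164 and 0.159). With the fit restricted to the compared groups Egr2 passed (limma, adjusted p = 0.0438), again with B6 controls that were all under 1 CPM.

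Strain differences in the vHPC covered most members. Between the control groups 8 members were higher in D2, all except Egr1 (0.44 ± 0.21, adjusted p = 0.0817) and Egr4 (0.20 ± 0.15, adjusted p = 0.247), against 59.3% of all genes called and 30.2% called higher in D2. Fosb was 3.33-fold higher (1.74 ± 0.13), Egr2 3.08-fold (1.62 ± 0.21), Npas4 3.03-fold (1.60 ± 0.17), Fos 2.58-fold (1.37 ± 0.21) and Junb 1.88-fold (0.91 ± 0.08), with adjusted p from 1.79e-11 for Fosb to 5.46e-06 for Fos. For Egr2 this again sets the D2 mice against B6 controls that were all under 1 CPM. Npas4 ran from 0.88 through 1.35 to 1.68 log2 CPM in B6 controls and from 2.61 through 2.92 to 3.21 in D2 controls, with a wide gap between the strains. Nr4a1 (0.64 ± 0.22), Arc (0.43 ± 0.15) and Dusp1 (0.42 ± 0.16) differed less, with adjusted p of 0.0160, 0.0162 and 0.0233.

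Library preparation cannot be told apart from most of these contrasts. The vHPC libraries were made in 10 sets, and B6 controls shared none of their 3 sets with B6 resilient, B6 susceptible or D2 control mice. With the set as a covariate no member passed in any of the defeat contrasts, and Fosb (1.84, adjusted p = 0.0131) and Junb (0.95, adjusted p = 0.0409) alone passed between the strains. In that fit the Fosb differences were 1.35 in B6 susceptible, 0.65 in B6 resilient and 0.93 in D2 susceptible mice (limma, adjusted p = 0.199, 1.0 and 0.926). B6 controls share no set with the defeated B6 mice, so the B6 values come only through sets of other groups. Within the single set that held both D2 groups, 1 susceptible mouse was above 1 control for 9 of the 10 members (Fosb by 0.86), and within the single set that held both defeated B6 groups, 1 susceptible mouse was above the mean of 2 resilient mice for 8 of 10 (Fosb by 0.73). Each count rests on 1 susceptible mouse. Its members move together, so they are not separate results, and no test was made within a set. Which mice shared a set added to these differences. The D2 control lay at -0.185 from its group means on average over the members, and the D2 susceptible mouse at 0.117. The B6 susceptible mouse lay at 0.077 and the 2 resilient mice at -0.068 and -0.092. Markers of other cells moved in these contrasts too. In B6 susceptible against control mice 6 of 6 oligodendrocyte markers (median -0.78), 3 of 6 choroid plexus markers (median -2.78) and 4 of 6 endothelial markers (median -0.42) were lower and 3 of 6 excitatory neuron markers (median 0.19) higher, and in D2 against B6 controls 6 of 6 oligodendrocyte (median -1.24), choroid plexus (median -2.47) and endothelial markers (median -0.62) were lower, 5 of 6 microglia and 5 of 6 astrocyte markers were lower, and 3 of 6 excitatory and 3 of 6 inhibitory neuron markers were higher. Oligodendrocyte markers were lower for 2 of 6 in B6 resilient mice (median -0.31), for 2 of 6 in D2 susceptible mice (median -0.31) and for 4 of 6 in B6 susceptible against resilient mice (median -0.44), where 3 of 6 excitatory and 3 of 6 inhibitory neuron markers were higher. Their part in the rise of the members was not tested. The Junb gene model also overlaps Prdx2 and that of Dusp1 overlaps Ergic1, each on the opposite strand; whether reads were counted by strand is not given in the sources used here, so reads of the partners could be included.

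**Figure D2:**
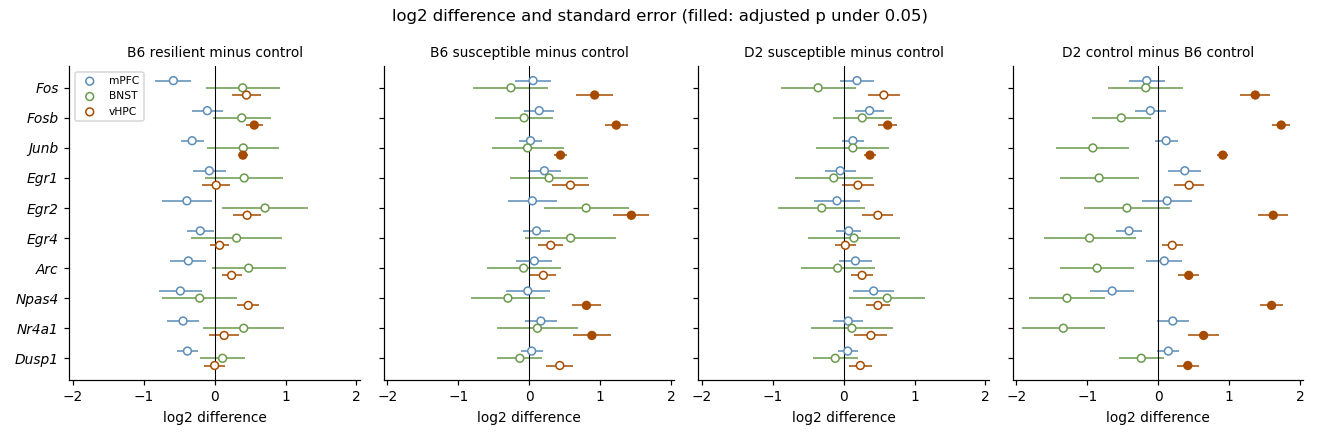
Difference in log2 level (x axis, points with standard error bars) of each member (rows) in 4 comparisons, with mPFC in blue, BNST in green, vHPC in orange and filled points for an adjusted p under 0.05. Every filled point is a vHPC rise, and in the strain comparison at the right the 10 vHPC points lie above 0 and the 10 BNST points below 0.

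In the mPFC no member passed in any of 6 comparisons, and in 2 of them, those of B6 resilient mice with controls and with susceptible mice, all 10 members lay on the same side. Both comparisons use the same resilient mice. The members also move together within mice (mean correlation 0.661 in the mPFC), so 10 signs on the same side are not 10 separate results. This holds for such counts in the other regions too. In B6 resilient against control mice all 10 differences were negative, from -0.58 ± 0.25 for Fos to -0.08 ± 0.24 for Egr1, with a median of -0.38 where the median over all genes was 0.00 (0 of 10 called by limma against 0% of all genes, with 2 of 10 at an unadjusted p under 0.05). Dusp1 ran from 2.83 through 2.99 to 3.38 log2 CPM in B6 controls, from 2.45 through 2.66 to 2.78 in resilient mice and from 2.8 through 3.1 to 3.22 in susceptible mice. Every resilient mouse was therefore below every other B6 mouse for this phosphatase gene, yet its difference from controls (-0.38 ± 0.15, unadjusted p = 0.0185, adjusted p = 0.999) and from susceptible mice (0.42 ± 0.15, unadjusted p = 0.0108, adjusted p = 0.128) did not pass. Fos ran from 4.37 through 4.75 to 4.95 in controls, from 3.37 through 4.29 to 4.6 in resilient and from 4.46 through 4.66 to 5.08 in susceptible mice, with overlap between all 3 groups.

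**Figure D3:**
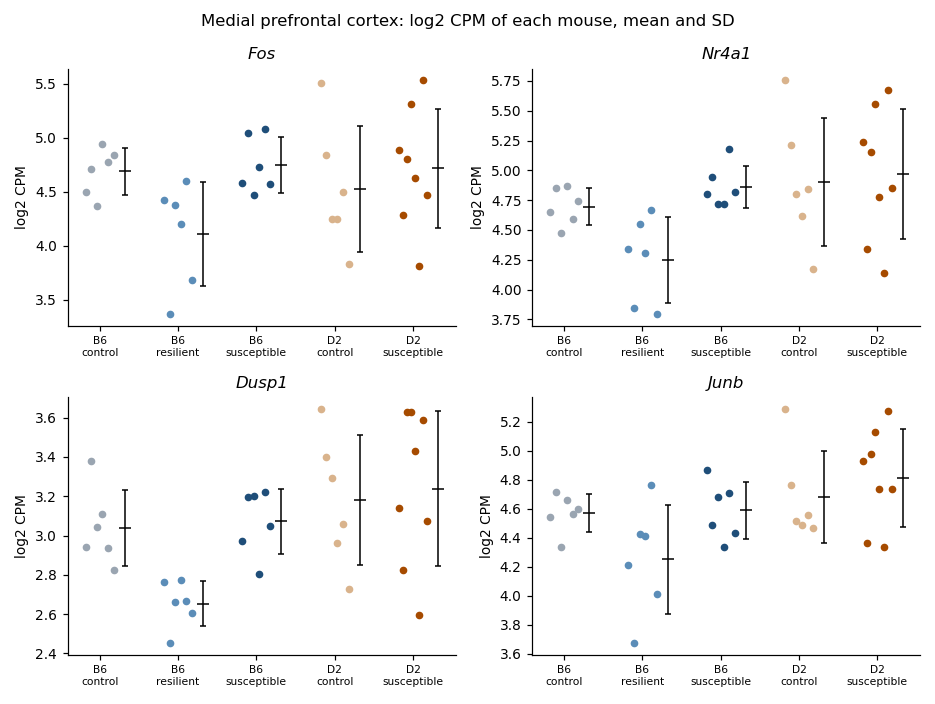
Level in log2 CPM (y axis) of Fos, Nr4a1, Dusp1 and Junb in each mPFC mouse, by group (x axis), with bars for the mean and SD. B6 resilient mice had the lowest mean for each gene, 4.11 for Fos and 2.65 for Dusp1, and the D2 groups the widest scatter for Fos, Nr4a1 and Dusp1. The genes shown are the members with an unadjusted p under 0.05 (limma) between B6 susceptible and resilient mice. Of the members not shown, Fosb, Egr4 and Npas4 had a lower mean in D2 controls than in B6 resilient mice.

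B6 susceptible mice exceeded resilient mice for all 10 members in the mPFC, by 0.25 (Fosb) to 0.64 (Fos) with a median of 0.43. None passed (0 of 10 by limma against 2.02% of all genes), and 4 had an unadjusted p under 0.05: Dusp1, Nr4a1 (0.61 ± 0.23, adjusted p = 0.134), Fos (adjusted p = 0.161) and Junb (0.34 ± 0.16, adjusted p = 0.252). Most B6 susceptible mice of the mPFC have names that begin with C7, as has B6 control replicate 6 but no resilient mouse. What this prefix stands for is not given in the sources used here, and whatever it marks is largely tied to susceptibility. Against controls, B6 susceptible mice differed little, by -0.02 to 0.22 (0 of 10 against 2.22% of all genes, and 0 of 10 at an unadjusted p under 0.05). D2 susceptible mice differed from D2 controls by -0.10 to 0.42, and the interaction with strain lay between -0.26 and 0.44 (0 of 10 by limma in each, against 0% of all genes in each, and 0 of 10 at an unadjusted p under 0.05). Between control groups, 0 of 10 members passed against 27.8% of all genes, and Npas4 (-0.65 ± 0.31, adjusted p = 0.114) and Egr4 (-0.41 ± 0.19, adjusted p = 0.102) had an unadjusted p under 0.05. Without D2 control replicate 1 the difference of Npas4 passed (-0.84, adjusted p = 0.0412). In the mPFC as well, 6 of 6 oligodendrocyte markers were lower in B6 susceptible than in control mice (median -0.79), 4 of 6 were lower than in resilient mice (median -0.73), and 6 of 6 were lower in D2 than in B6 controls (median -0.94). Their part in the values of the members was not tested.

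The BNST gave no significant member in 7 comparisons. Its values, which were not corrected for batches, had the largest SD between mice of the 3 regions for each member, and so did genes of like level. In D2 against B6 controls all 10 members were lower, opposite in direction to the vHPC, from -0.18 for Fos to -1.34 ± 0.59 for Nr4a1 and -1.29 ± 0.54 for Npas4 (median -0.85, all genes 0.04). None passed (0 of 10 by edgeR and by DESeq2 against 2.51% of all genes by edgeR), and Nr4a1 and Npas4 alone had an unadjusted p under 0.05, with adjusted p of 0.316 and 0.283. Npas4 was 3.84, 5.17, 3.72, 6.17 and 4.79 log2 CPM in B6 controls and 4.04, 2.11, 4.3, 4.32 and 2.69 in D2 controls, so the groups overlapped and replicates 2 and 5 of the D2 controls were the low ones. These same mice had the lowest summed striatal markers of the BNST libraries, 9.44 and 8.91. A further fit left out the 2 low libraries named earlier, D2 control replicate 2 and B6 susceptible replicate 5, and kept D2 control replicate 5. In it all 10 differences were still negative, with Nr4a1 at -1.09, Npas4 at -1.06 and Dusp1 at -0.01. No fit left out both low D2 controls.

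The defeat contrasts of the BNST were small beside their errors. B6 resilient mice differed from controls by -0.21 to 0.71, B6 susceptible mice from controls by -0.30 to 0.80, D2 resilient mice from controls by -0.57 to 1.2 and D2 susceptible mice from controls by -0.36 to 0.61. The share of all genes called was 0% in each of these and in the interaction, and 0.00571% between B6 susceptible and resilient mice, where the members lay between -0.65 and 0.28. In these 6 comparisons 0 of 10 members passed by edgeR or by DESeq2, and 0 of 10 had an unadjusted p under 0.05. The highest value, 1.2 ± 0.60, was that of Npas4 in D2 resilient mice (adjusted p = 0.902), at 4.32, 4.50 and 5.58 log2 CPM. All 3 lay above the D2 controls, although the lowest of them and the highest control were nearly level. Fos in the BNST rested on few reads, 2 to 124 per library. The library with 2 reads was B6 susceptible replicate 5, at -2.38 log2 CPM against 1.41 to 2.38 in the other 4 mice of its group, and without the 2 low libraries the susceptible difference from controls moved from -0.26 to 0.05. Summed markers varied between BNST groups too. Excitatory neuron markers had medians of 6.11 in B6 control, 8.08 in resilient (4.35 to 9.77) and 5.08 in susceptible mice. Oligodendrocyte markers had medians of 12.00, 12.03 and 12.91 in these groups and 12.62, 11.89 and 11.45 in D2 control, resilient and susceptible mice. Their part in the values of the members was not tested.

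Within groups, the members varied more from mouse to mouse than most genes of like level. The SD of the residuals from the group means was ranked among genes of like level, in 10 equal bins by mean level. Its percentile ran from 85.1 (Dusp1) to 99.6 (Egr1 and Arc) in the mPFC, with a median of 98.2, from 91.1 to 99.8 in the BNST, with a median of 98.9, and from 72.2 (Fosb) to 99.6 (Nr4a1) in the vHPC, with a median of 95.9. Arc in the mPFC had an SD of 0.45 log2 units, 5.13 times the median of its bin, and Egr1 one of 0.42, 4.92 times. In the BNST the SD of Egr4 was 1.1, 3.36 times the median of its bin, from 16 to 3025 reads per library. In the vHPC Fosb had an SD of 0.23, 1.17 times its median, and Junb 0.13, 1.41 times, while Egr2 had 0.38, 1.49 times.

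**Figure D4:**
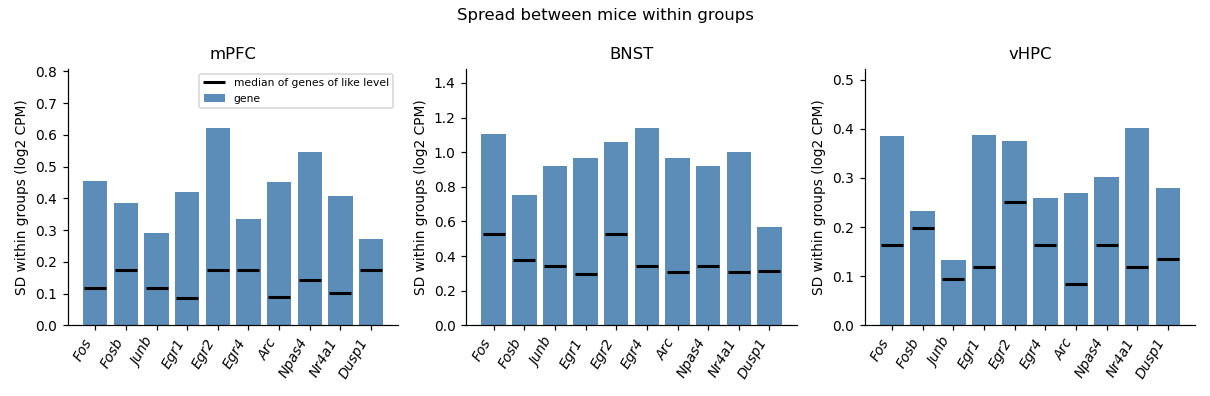
SD between mice within groups in log2 CPM (y axis, bars from 0) for each member (x axis) in the 3 regions, with black marks for the median SD of genes of like level. Every bar reaches above its mark, from 1.17 times for Fosb in the vHPC to 5.13 times for Arc in the mPFC, and the y axes differ between regions.

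Whether defeat or strain changed this scatter was tested on absolute deviations from the group means. In the mPFC 0 of 10 members passed in B6 defeated against control mice (0.00528% of all genes), in D2 (0%) or between the strains (0.0158%), where 2 of 10, Npas4 and Nr4a1, had an unadjusted p under 0.05 and the others of these mPFC tests had none. In the vHPC 0 of 10 passed in B6 or in D2 mice (0.00511% of all genes in each) or between the strains (0%), with Egr2 alone at an unadjusted p under 0.05, in B6 and between the strains. The vHPC values had been corrected for batches, and the groups compared there shared few or no library sets. That step could have reduced a difference in spread between groups, so the vHPC result does not exclude one. In the BNST 0 of 10 passed in B6 (0.0171% of all genes, none of the 10 at an unadjusted p under 0.05) and between the strains (0.223%, with Fosb and Egr4 at an unadjusted p under 0.05). In D2 defeated against control mice Fosb alone passed, with a smaller spread in defeated mice (-0.63 ± 0.16, limma, adjusted p = 0.0372), against 8.2% of all genes called and 8.16% called smaller. This 1 of 10 is near the share over all genes. The median difference was -0.20 over all genes and -0.58 over the members. Fosb was 3.92, 1.57, 4.1, 3.94 and 1.88 in the D2 controls, with replicates 2 and 5 far below the rest, and 2.55 to 4.42 in the 8 defeated D2 mice. No member passed without D2 control replicate 2, without it and B6 susceptible replicate 5, without D2 resilient replicate 2 or 3, without D2 susceptible replicate 2, 3 or 4, or with deviations from the group median, whereas 3 to 5 members passed when D2 control replicate 1, 3, 4 or 5 was left out.

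The members rose and fell together from mouse to mouse. Over the residuals from the group means, the mean correlation of the 45 pairs of members reached 0.661 over 32 mPFC mice, 0.686 over 28 BNST mice and 0.526 over 28 vHPC mice, while the mean over all pairs of genes was 0.001, 0.003 and 0.002. Positive and negative pairs cancel in the mean over all genes, so it does not measure how strongly other genes move together. The share of all genes that followed the members is given further below. The highest pair in the mPFC was Arc with Nr4a1 (0.956), in the BNST Junb with Egr4 (0.943) and in the vHPC Egr1 with Nr4a1 (0.909). Nr4a1 had the highest mean correlation with the other members in each region, 0.767, 0.804 and 0.685. Npas4 had the lowest in the mPFC (0.387) and vHPC (0.336), and Fos in the BNST (0.426). The vHPC pairs of Npas4 with Egr2 (0.012) and with Junb (0.021) were near 0. The points share libraries, depth and dissection, so these values describe the set and are given without a test. Without the 2 low BNST libraries the mean was 0.625.

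**Figure D5:**
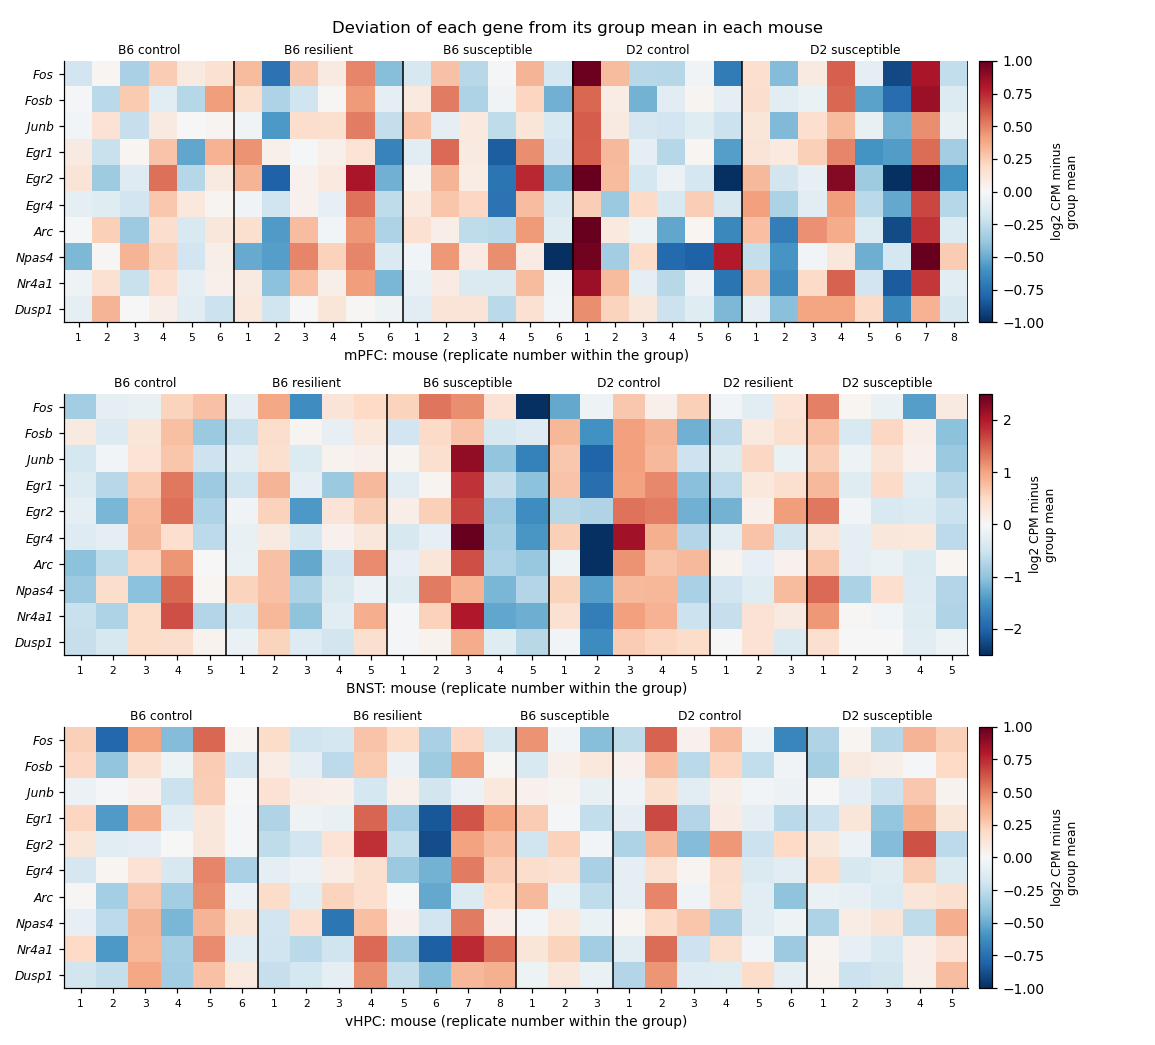
Level minus group mean in log2 CPM (colour, red above and blue below) for each member (rows) in each mouse (columns, by group and replicate number) in the mPFC, BNST and vHPC, with a wider colour scale for the BNST and the end colour for values beyond the scale. Columns tend to be of 1 colour, such as mPFC D2 control replicate 1 and BNST B6 susceptible replicate 3 in red and BNST D2 control replicate 2 in blue.

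Single mice show this plainly. At least 8 of the 10 members lay on the same side of their group means in 24 of 32 mPFC mice, 19 of 28 BNST mice and 18 of 28 vHPC mice, and all 10 did in 9, 8 and 4. In the mPFC, D2 control replicate 1 was 0.75 above its group on average and D2 susceptible replicates 7 and 6 were 0.75 above and 0.70 below, each with all 10 members on that side. Among vHPC mice the means ran from -0.50 (B6 resilient replicate 6, 10 of 10 below) to 0.39 (D2 control replicate 2, 10 of 10 above). From 7 mice both the mPFC and the vHPC were sequenced, and 5 of them deviated to the same side in both regions, including the D2 susceptible mice at 0.75 in the mPFC and 0.12 in the vHPC and at -0.70 and -0.04. In the BNST the 14 libraries of set 2 lay 0.35 above and the 14 of set 1 0.35 below their group means on average, and with set means removed the mean correlation of the members was 0.634. The mean deviation of the members correlated with summed striatal markers at 0.731 in the BNST (28 mice), and in the vHPC with thalamic markers at 0.662, choroid plexus markers at 0.643, striatal markers at 0.629 and excitatory neuron markers at 0.497 (28 mice). In the mPFC its correlations with the 10 marker lists lay between -0.15 and 0.22. Their part in the shared deviations was not tested.

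Genes outside the set that followed it most closely were looked up by correlation with the mean standardized residual of the members. In the mPFC these were Trib1 (0.894), a pseudokinase gene, Dusp6 (0.842), an ERK phosphatase gene, Fosl2 (0.834), of the AP-1 family, Midn (0.807) and the clock gene Per1 (0.801). In the BNST they were Tet3 (0.907), Fosl2 (0.897), Ino80e (0.895), Per1 (0.891) and Egr3 (0.885), and in the vHPC Map3k1 (0.905), Tent5a (0.888), Scaf11 (0.865), Cul4b (0.863) and Fzd4 (0.862). Correlations over 0.5 were rare in the mPFC (1.46% of all genes) but common in the BNST (20.8%) and vHPC (12.3%), where the members moved with a large part of the transcriptome. By the mean over the 3 regions, among 16030 genes in all 3 tables, the leading genes were Midn (0.829), Per1 (0.819), the salt-inducible kinase genes Sik1 (0.760) and Sik2 (0.756) and the heat shock protein gene Dnajb5 (0.759).

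Other genes of the pathway shared the rhythm to different degrees. Among 26 further rapid activity-induced genes, the mean standardized residual correlated with that of the members at 0.929 for the 25 measured in the mPFC, 0.905 for the 24 in the BNST and 0.910 for the 25 in the vHPC. Single genes of this list followed less closely, with median correlations of 0.465, 0.519 and 0.443. By the same list mean the closest marker lists reached 0.281 in the mPFC (thalamic), 0.70 in the BNST (striatal) and 0.75 in the vHPC (thalamic). For 13 genes induced later, such as Bdnf and Homer1, the value was 0.742 in the mPFC and 0.325 in the BNST but -0.371 in the vHPC. For 15 upstream kinases and transcription factors it was 0.361, 0.661 and 0.496, with Srf, the factor that binds CArG boxes, at 0.452, 0.870 and 0.546 and Creb1, which binds the CRE, at 0.208, -0.612 and 0.048.

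Group differences of the rapid and later genes in the vHPC went in both directions, and the lists were not tested against each other or against other genes. Between B6 susceptible and control mice, where 40.6% of all genes were called and 20.5% called higher, 9 of 25 rapid genes were higher and 2 lower, led by Nr4a2 (0.85 ± 0.18) and Ier2 (0.79 ± 0.20), while 1 of 13 later genes was higher and 4 lower, led by Ptgs2 (-0.85 ± 0.12), Nptx2 (-0.56 ± 0.14) and Bdnf (-0.37 ± 0.07). Between D2 and B6 controls, where 59.3% of all genes were called and 30.2% called higher, 11 rapid genes were higher and 2 lower, with Jun, the partner of Fos in AP-1, at 0.93 ± 0.07, and 3 later genes higher and 5 lower, with Ptgs2 at -1.43 ± 0.10, Nptx2 at -1.14 ± 0.12 and Bdnf, which encodes a neurotrophin, at -0.71 ± 0.06. In B6 resilient mice, where 4.94% of all genes were called higher, Jun (0.31 ± 0.07) alone of the rapid genes was higher, with Vgf (0.32 ± 0.07) among the later genes, which held Ptgs2 (-0.48 ± 0.09) and Bdnf (-0.26 ± 0.06) on the lower side. Among the upstream genes Srf (0.21 ± 0.07) was higher there and Camk4 (-0.26 ± 0.04) lower. In D2 susceptible mice, where 4.28% of all genes were called, Jun (0.35 ± 0.07) was the only rapid gene called, and Ptgs2 (-0.38 ± 0.10) and Bdnf (-0.22 ± 0.06) were lower. The upstream kinase gene Camk4 (-0.22 ± 0.05) was lower too. Of the upstream genes, 7 of 15 were higher and 2 lower in B6 susceptible mice, with Mapk3, which encodes ERK1, at 0.79 ± 0.17, and 7 higher and 2 lower in D2 controls. Between susceptible and resilient B6 mice, where 27.6% of all genes were called and 14.1% called higher, 6 of 25 rapid, 0 of 13 later and 6 of 15 upstream genes were higher and 2, 2 and 1 lower, with Nr4a2 (0.76 ± 0.17) and Egr3 (0.71 ± 0.19) in front. All of these vHPC values carry the same tie to library sets as those of the members.

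In the other regions fewer genes of these lists were called. In the mPFC Per1 was the only rapid gene higher in B6 susceptible than in resilient mice (0.44 ± 0.10, adjusted p = 0.0306), beside the upstream kinase gene Map2k1 (0.21 ± 0.04, adjusted p = 0.0304), and Mrtfa, which encodes a partner of serum response factor, was higher than in controls (0.19 ± 0.05, adjusted p = 0.0350). Between mPFC controls, where 27.8% of all genes were called, 2 of 25 rapid genes were higher in D2 (Csrnp1 at 0.71 ± 0.18 and Per1 at 0.36 ± 0.10) and 1 lower (Nr4a2 at -0.61 ± 0.18), 3 of 13 later genes were lower and 3 of 15 upstream genes were higher and 1 lower, with the later genes Ptgs2 at -1.33 ± 0.20 and Sorcs3 at -0.39 ± 0.07. In the BNST no gene of the 3 lists passed in any comparison by edgeR.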

How the data were processed

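RNA of single mice was sequenced after ribosomal RNA depletion, in a library kit particular to each region. Per the methods of the study, the authors aligned reads to GRCm38, removed PCR duplicates, counted exons with HTSeq, dropped genes that did not reach 1 CPM in 6 samples, applied voom and removed library and, in the vHPC, sequencing batches with ComBat. The mPFC and vHPC values are the log2 CPM that the authors deposited after these steps; whether ComBat was told the groups is not given in the sources used here. The BNST values are raw read counts as deposited, filtered at 1 CPM in 6 libraries and TMM-scaled, with a prior count of 0.5.

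Groups followed the labels. In R 4.3.3, robust limma 3.58.1 was fitted to log2 CPM and robust quasi-likelihood edgeR 4.0.16 to counts, over all groups of a region and all genes, with Benjamini-Hochberg adjustment over all genes and a threshold of 0.05; DESeq2 1.42.0 was an alternative. Spread was tested with limma on absolute deviations from group means. p-values of the B6 contrasts share mice. Library sets were read from the supplement of the study. Besides the members, genes with group differences were named from the 3 highest and 3 lowest that passed per comparison. These were taken over the rapid, later and upstream lists together, and not all of them are printed. The 5 genes most correlated with the members were named per region and over all 3. The members and lists were chosen with earlier results of these data known. Scripts were tested on simulated data.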

Additional observations from a re-analysis of the deposited data

Results flagged for a closer look

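Among 140 sets of values, those of 10 members in each of 14 groups of 4 or more mice, 5 held a value that stood far from the rest by the Dixon criterion, where chance gives about 1 in 20. In the mPFC, Junb was 5.29 log2 CPM in D2 control replicate 1 with the next mouse at 4.77, Egr4 was 3.19 in B6 resilient replicate 5 with the next at 2.69, and Npas4 was 3.09 in B6 susceptible replicate 6 with the next at 4.10. In the BNST, Fos was -2.38 in B6 susceptible replicate 5 with the next at 1.41, and Egr2 was 2.91 in D2 susceptible replicate 1 with the next at 1.51. All 10 members deviated to the same side in mPFC D2 control replicate 1, B6 resilient replicate 5 and B6 susceptible replicate 6.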

How the results depend on the processing

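The 21 member differences in level that passed, all in the vHPC, kept their direction in all 390 refits and stayed past the threshold in 349; Egr2 gave no value under the filter at a mean log2 CPM of 1, which removed it. With library set as a covariate, the number of members that passed in the vHPC fell to 0 in B6 resilient, B6 susceptible and D2 susceptible against control mice and in B6 susceptible against resilient mice, and to 2 between strains; with sequencing set it was 1 in B6 resilient and 1 in D2 susceptible mice. With only the compared groups it was 1 for B6 susceptible against resilient mice, 1 for the vHPC interaction and 1 between strains in the mPFC. Leaving out 1 mouse gave 2 to 4 in B6 resilient mice, 4 to 7 in B6 susceptible mice, 1 to 5 for susceptible against resilient, and 0 to 1 between strains in the mPFC. The BNST spread of D2 defeated mice gave 0 with group medians, 0 without both low libraries (chosen after seeing the data) and 0 to 5 with 1 mouse left out, and the BNST spread between strains 0 to 1. The cause was not tested. The mean correlation and median SD percentile of the members moved by less than their jackknife SE. No paired analysis was possible because a mouse is in 1 group of a region only and the labels name mice in place of shared replicate numbers. The depth of the mPFC and vHPC libraries is unknown, and Fos in the BNST rests on few reads.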
